A study of Mus musculus with 75 samples.

Results

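The comparison described here is that of Gpr37 knockout with wild-type mice in the colon, 24 h after lipopolysaccharide (LPS), a bacterial endotoxin. Its members are the 4 knockout and 5 wild-type libraries whose labels give this region, treatment and time, 9 of the 37 libraries of the 24 h experiment and of the 75 in the series. Wild-type mice are given as Gpr37WT and knockouts as Gpr37-/-, and both groups also carried an eGFP reporter, which marks cells by activity of the promoter that drives it and not by identity as glia. All 9 adult mice had received a single intraperitoneal injection of LPS at 2 mg/kg. The samples are labelled as enteric glial cells (EGC) of the myenteric plexus, and each library came from a different mouse. The knockout group held 3 males and 1 female, and the wild-type group 3 males and 2 females. Colon libraries of mice given phosphate-buffered saline (PBS), 4 wild-type and 5 knockout, served as the background of the genotype without LPS.

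Enteric glia are the peripheral glial cells that surround the neurons of the gut wall. They are known to respond to endotoxin and cytokines through Toll-like receptor, NF-kB and interferon signalling, with release of chemokines and display of MHC molecules. Gpr37 encodes a G protein-coupled receptor of myelinating and other glia, for which prosaposin, the product of Psap, has been proposed as a ligand.

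In these libraries 64 of 14903 tested genes differed between knockout and wild type, 0.429% of those tested. Of these, 39 were higher in the knockout (0.262%) and 25 lower (0.168%). Calls rest on edgeR's quasi-likelihood test at a Benjamini-Hochberg adjusted p below 0.05 over all tested genes. Genes that rose included Lrrtm1, Rspo1, Vegfd, Pak3 and Tspan18, and the largest falls were those of Slc2a6, Hk2 and Micall2. The calls of Hk2 and Micall2 were lost without 2 wild-type libraries rich in epithelial RNA (mice 3 and 8). Of all members of 30 lists of glial, inflammatory and cell type genes, 1 was called, Tap1, which encodes a subunit of the peptide transporter of MHC class I presentation and fell. The spread between libraries was wide, and the number of calls depended on single libraries, as given below. It also depended on the small intestine libraries in the model, since no gene was called with the 4 colon groups alone.

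The targeted gene was examined first. Gpr37 lies on chromosome 6 (25665878 to 25690729, minus strand, GRCm38). Wild-type LPS colon libraries held 23, 20, 2, 0 and 0 Gpr37 counts in mice 13, 16, 3, 5 and 8, or 8.37, 2.4, 0.472, 0 and 0 CPM (counts scaled to the size of the library). The 4 knockout libraries held 1 count in all, in mouse 2 (0.268 CPM). The groups overlapped, because 3 of the 5 libraries labelled wild type were at or under 3 counts. Over all counts of each group the wild-type level was 55.3-fold that of the knockout, with a 95% interval of 9.43 to 2232 that covers counting error only. The fitted log2 fold change was -5.30 ± 1.70 (SE), and Gpr37 was not called (edgeR quasi-likelihood test, Benjamini-Hochberg adjusted p = 0.136). In PBS colon the wild-type libraries held 3.18 to 13.3 CPM and the knockouts 0 to 0.802 CPM.

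A second gene of chromosome 6 separated the genotypes more sharply than Gpr37 itself. Arf5, which encodes a small GTPase of the ADP-ribosylation factor family that acts in Golgi membrane traffic, lies 2.758 Mb from Gpr37 (28423560 to 28426602, plus strand, GRCm38). The promoters of both genes, as RefSeq gives them on GRCm38.p6, are shown with that of Slc2a6, the called gene with the largest fall. Each runs 5′ to 3′ on the gene's own strand, from 250 bases before the transcript start to 50 after it. Gpr37 is chr6:25689931-25690230 on the minus strand, Arf5 chr6:28423354-28423653 on the plus strand and Slc2a6 chr2:27027949-27028248 on the minus strand. The Gpr37 window lies inside the span of that gene given above, because GENCODE M21 sets its start further upstream than RefSeq. Capitals mark matches to a kappaB-like motif, GGGA and CC with any 4 bases between them, in Gpr37 and Slc2a6. In Arf5 they mark an E-box, CACGTG, that overlaps a CRE-like core, TGACGT.
Gpr37: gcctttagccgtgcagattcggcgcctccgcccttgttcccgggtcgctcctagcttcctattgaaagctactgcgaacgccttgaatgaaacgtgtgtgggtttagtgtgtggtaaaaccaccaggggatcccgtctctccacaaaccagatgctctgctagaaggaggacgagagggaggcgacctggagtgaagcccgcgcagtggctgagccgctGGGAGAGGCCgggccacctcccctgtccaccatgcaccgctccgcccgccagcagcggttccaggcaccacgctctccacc
Arf5: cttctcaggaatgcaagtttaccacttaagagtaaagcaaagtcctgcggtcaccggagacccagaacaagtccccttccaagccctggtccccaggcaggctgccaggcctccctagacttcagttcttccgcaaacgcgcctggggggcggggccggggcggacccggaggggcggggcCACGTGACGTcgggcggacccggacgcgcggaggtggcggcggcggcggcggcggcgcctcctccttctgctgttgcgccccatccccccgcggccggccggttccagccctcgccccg
Slc2a6: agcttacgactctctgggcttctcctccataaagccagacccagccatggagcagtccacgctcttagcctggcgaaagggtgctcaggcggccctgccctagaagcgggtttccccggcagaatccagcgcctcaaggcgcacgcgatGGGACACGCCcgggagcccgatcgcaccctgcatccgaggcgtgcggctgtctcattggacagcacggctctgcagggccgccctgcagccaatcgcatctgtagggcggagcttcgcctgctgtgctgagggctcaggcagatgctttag

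Arf5 stood at 127, 168, 284, 109 and 218 CPM in wild-type LPS colon (mice 13, 16, 3, 5 and 8). The knockout libraries of mice 11, 17, 2 and 21 held 37.4, 60.1, 47.4 and 64.8 CPM. The groups did not overlap. The log2 fold change was -1.79 ± 0.29 (SE; edgeR quasi-likelihood test, Benjamini-Hochberg adjusted p = 0.00446), and the call held whichever of the 9 libraries was omitted. Wild-type mice 3, 5 and 8, which held 0 to 2 Gpr37 counts, were thus above all knockouts in Arf5. Mouse 3, with 2 Gpr37 counts in the colon, had none in LPS small intestine, where its Arf5 level was 234 CPM, and mouse 8 held 100 Gpr37 counts there. Mouse 5 had no Gpr37 count in the colon and gave no small intestine library. Whether mice 3 and 5 carry the genotype of their labels was not tested.

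Arf5 was lower in the knockout in the other comparisons of the 24 h experiment as well. Its log2 fold change was -1.23 ± 0.28 in PBS colon (not called), -1.29 ± 0.28 in PBS small intestine (not called) and -1.52 ± 0.28 in LPS small intestine, where it was called (edgeR quasi-likelihood test, Benjamini-Hochberg adjusted p = 0.0321). The regions share some mice, so that the 4 comparisons are not independent. Over all 24 h libraries the knockouts held 37.4 to 110 CPM (n = 18) and the wild types 95.1 to 284 CPM (n = 19). In 17 of the 18 knockout libraries Arf5 was below the lowest wild-type library, the exception being the PBS colon library of mouse 7 at 110 CPM. Gpr37 and Arf5 were the 2 genes, of all 14903, with an unadjusted p under 0.05 in all 4 comparisons. Of 80 other tested genes within 10 Mb of Gpr37, Arf5 and Fam180a were called in LPS colon (2.5%, against 0.429% of all genes). In LPS colon Fam180a had 0 counts in all 5 wild-type libraries and 0 to 18.3 CPM in the 4 knockouts, and was called in 5 of the 9 fits with 1 library omitted. Unlike Arf5, Fam180a was called in none of the other comparisons. Its log2 fold change was 1.02 in PBS colon, -0.395 in LPS small intestine and -0.048 in PBS small intestine. It was named here after its values were seen.

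**Figure D1:**
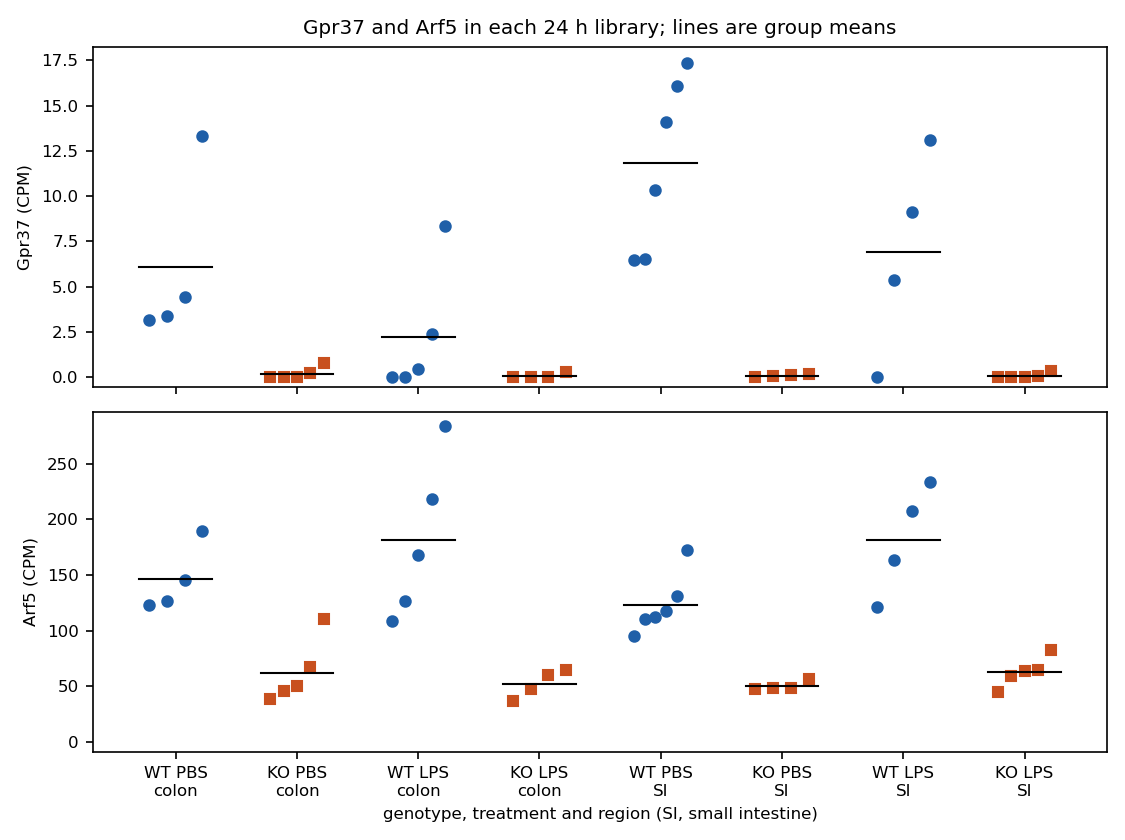
CPM of Gpr37 (top) and Arf5 (bottom) in each of the 37 libraries of the 24 h experiment, by genotype, treatment and region, with circles for wild type (WT), squares for knockout (KO) and lines for group means. Gpr37 of wild-type LPS colon reaches down to 0, while Arf5 of knockouts lies at 37.4 to 110 CPM against 95.1 to 284 CPM in wild types.

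Genes higher in the knockout were led by Lrrtm1, which encodes a leucine-rich repeat membrane protein of synapses (chromosome 6, 77242689 to 77257791). The knockout libraries of mice 11, 17, 2 and 21 held 19.2, 14.4, 26.3 and 16.6 CPM. Wild-type libraries held 1.09 CPM in mouse 13, 0.12 CPM in mouse 16 and 0 in mice 3, 5 and 8. The groups did not overlap. The log2 fold change was 6.66 ± 0.93 (SE; edgeR quasi-likelihood test, Benjamini-Hochberg adjusted p = 0.000562), the smallest p of all genes, and 5.27 ± 1.00 among mice numbered 11 and above (3 knockout and 2 wild type). PBS colon libraries held 14.1 to 35.3 CPM in wild type and 3.62 to 105 CPM in knockouts.

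Rspo1 and Vegfd, which encode secreted proteins, were called higher. Rspo1, which encodes an R-spondin that amplifies Wnt signalling (chromosome 4, 124986430 to 125009099), had no count in any wild-type LPS colon library. The knockouts held 4.83, 10.3, 5.36 and 4.34 CPM in mice 11, 17, 2 and 21. Against a floor of 3 counts over the wild-type group Rspo1 was at least 47.2-fold higher in the knockout (edgeR quasi-likelihood test, Benjamini-Hochberg adjusted p = 0.00661). Its PBS colon level averaged 7.49 ± 4.59 CPM (SD, n = 4) in wild type and 12.4 ± 6.09 CPM (n = 5) in knockouts. Vegfd, a growth factor of lymphatic vessels (chromosome X, 164373378 to 164402650), held 13.1, 33.9, 48.8 and 35.4 CPM in knockout mice 11, 17, 2 and 21. Wild-type mice 13, 16, 3, 5 and 8 held 2.18, 1.32, 3.54, 0 and 0 CPM. The knockout libraries with LPS were all above the PBS libraries of both genotypes, which reached 7.91 CPM. Vegfd rose by 4.56 ± 0.90 on the log2 scale (edgeR quasi-likelihood test, Benjamini-Hochberg adjusted p = 0.0252).

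Membrane and signalling proteins among the higher genes included Tspan18, a tetraspanin (chromosome 2, 93201760 to 93334505). Its level was 77.5, 28.3, 25.2 and 116 CPM in knockout mice 11, 17, 2 and 21, and 6.19, 12.3, 3.77, 2.96 and 0 CPM in wild-type mice 13, 16, 3, 5 and 8. The knockout range lay within that of the PBS colon libraries of both genotypes, 30.8 to 122 CPM, except for mice 17 and 2 just under it. Tspan18 rose by 3.59 ± 0.62 on the log2 scale (edgeR quasi-likelihood test, Benjamini-Hochberg adjusted p = 0.00661). Pak3, a p21-activated kinase that acts on the actin cytoskeleton, held 8.62, 12.6, 53.3 and 6.14 CPM in the knockouts, in the same order, and at most 3.12 CPM in wild type. Its rise of 4.25 ± 0.80 (edgeR quasi-likelihood test, Benjamini-Hochberg adjusted p = 0.0174) was 1.99 ± 0.82 and not called among mice numbered 11 and above (adjusted p = 0.215).

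Ptgs1 and Mfap2 were also called higher. Ptgs1, which encodes cyclooxygenase 1 of prostaglandin synthesis, held 52.9, 94.4, 28.1 and 52 CPM in knockout mice 11, 17, 2 and 21 and 0.236 to 14.2 CPM in wild type. Mfap2, a glycoprotein of extracellular microfibrils, held 42.8, 25.8, 33.2 and 33.3 CPM in the same knockout mice and 0.708 to 9.95 CPM in wild type. In neither gene did the groups overlap. Ptgs1 rose by 2.85 ± 0.66 and Mfap2 by 2.88 ± 0.55 on the log2 scale (edgeR quasi-likelihood test, Benjamini-Hochberg adjusted p = 0.042 and 0.0204). With 1 library omitted Ptgs1 was called in 3 of the 9 fits and Mfap2 in 8. Neither was called without wild-type mice 3 and 8 (edgeR quasi-likelihood test, Benjamini-Hochberg adjusted p = 0.127 and 0.071). The other higher genes of the naming rule were Fmo1, a flavin monooxygenase, Fancc of the DNA repair Fanconi complex, Rtn2, a reticulon of the endoplasmic reticulum, and Nat8f1, an acetyltransferase of a family with similar copies whose reads are uncertain. Their log2 fold changes ran from 1.97 in Rtn2 to 3.38 in Fmo1.

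Among the lower genes, Slc2a6 had the largest fall. It encodes a hexose transporter of intracellular membranes and lies on chromosome 2 (27021363 to 27027998). Wild-type mice 13, 16, 3, 5 and 8 held 55.7, 28.4, 38.7, 99.8 and 25.3 CPM. Knockout mice 11 and 17 held 2.17 and 4.44 CPM, and mice 2 and 21 had no count. No knockout library exceeded the highest PBS colon library, and PBS colon averaged 4.14 ± 2.20 CPM in wild type (SD, n = 4) and 4.06 ± 2.40 CPM in knockouts (n = 5). Slc2a6 fell by 4.88 ± 1.01 on the log2 scale (edgeR quasi-likelihood test, Benjamini-Hochberg adjusted p = 0.0375). In LPS small intestine its log2 fold change was -2.15 ± 0.84 and not called, in part from the same mice.

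Tap1 (chromosome 17, 34187553 to 34197225) stood at 703, 667, 604, 914 and 873 CPM in wild-type mice 13, 16, 3, 5 and 8. Knockout mice 11, 17, 2 and 21 held 208, 201, 301 and 165 CPM. The groups did not overlap, and PBS colon libraries held 31.2 to 180 CPM. Tap1 fell by 1.78 ± 0.41 on the log2 scale (edgeR quasi-likelihood test, Benjamini-Hochberg adjusted p = 0.0435). The fall was 1.86 ± 0.43 among mice numbered 11 and above (adjusted p = 0.0281) and 1.81 ± 0.46 without wild-type mice 3 and 8, where it was not called (adjusted p = 0.0902). When each of the 9 libraries was omitted in turn, Tap1 was called in 3 fits.

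H3f3b, Srsf5 and Hmgb2 were called lower. H3f3b, a gene of the replacement histone H3.3, held 1572 to 2015 CPM in wild type (median 1630) and 630, 827, 1243 and 585 CPM in knockout mice 11, 17, 2 and 21. It fell by 1.08 ± 0.20 on the log2 scale (edgeR quasi-likelihood test, Benjamini-Hochberg adjusted p = 0.0174) and was named after its values were seen. Srsf5, a splicing factor, held 155, 169, 140, 102 and 130 CPM in wild-type mice 13, 16, 3, 5 and 8 and 51.9, 35.2, 75.1 and 20.4 CPM in knockout mice 11, 17, 2 and 21. Hmgb2, a chromatin protein of the high mobility group, held 23.6 to 67.7 CPM in wild type and 9.18 to 18 CPM in knockouts. PBS colon means were 38.6 and 43.2 CPM for Srsf5 and 10.5 and 18.4 CPM for Hmgb2, in wild type and knockout. They fell by 1.61 ± 0.35 and 1.71 ± 0.38 (edgeR quasi-likelihood test, Benjamini-Hochberg adjusted p = 0.0376 each).

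Trex1, an exonuclease that degrades cytosolic DNA, held 119, 118, 205, 200 and 91.6 CPM in wild-type mice 13, 16, 3, 5 and 8. Knockout mice 11, 17, 2 and 21 held 30.6, 72.9, 46.4 and 45.2 CPM, all below the wild-type libraries and above the PBS colon range of 12.6 to 29.4 CPM. Trex1 fell by 1.59 ± 0.36 on the log2 scale (edgeR quasi-likelihood test, Benjamini-Hochberg adjusted p = 0.0409). Its annotated span (chromosome 9, 109057933 to 109059734) lies inside that of Atrip, which was also called lower, so the reads of the 2 genes cannot be told apart with certainty. Micall2, a regulator of membrane traffic at cell junctions, fell by 3.56 ± 0.80, from 22.9 to 64.8 CPM in wild type to 1.88 to 4.62 CPM in knockouts (edgeR quasi-likelihood test, Benjamini-Hochberg adjusted p = 0.0388). It was called in 2 of the 9 fits with 1 library omitted. Without wild-type mice 3 and 8 it had -3.66 ± 0.85 and was not called (edgeR quasi-likelihood test, Benjamini-Hochberg adjusted p = 0.0552).

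In 4 of the lower genes named here the call was lost both without wild-type mice 3 and 8 and with a covariate for epithelial RNA, which was abundant in these libraries. Hk2, a hexokinase of glycolysis, held 94.6 and 109 CPM in these and 6.92, 4.31 and 8.41 CPM in wild-type mice 13, 16 and 5. Knockout mice held 0.711 to 3.38 CPM, below all wild-type libraries. Hk2 fell by 4.38 ± 1.03 on the log2 scale (edgeR quasi-likelihood test, Benjamini-Hochberg adjusted p = 0.0467), and its log2 fold change was -1.63 ± 0.89 without those 2 libraries (adjusted p = 0.45). Sec11c, a signal peptidase subunit, went from -1.58 ± 0.37 to -0.60 ± 0.31, and Usp6nl, a GTPase-activating protein of endosomal traffic, from -2.62 ± 0.62 to -1.90 ± 0.64. Neither was called without those libraries (edgeR quasi-likelihood test, Benjamini-Hochberg adjusted p = 0.441 and 0.211). Ppan, a ribosome biogenesis factor, fell by 2.45 ± 0.57 with them (adjusted p = 0.042) and had -2.09 ± 0.60 without (adjusted p = 0.127).

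**Figure D2:**
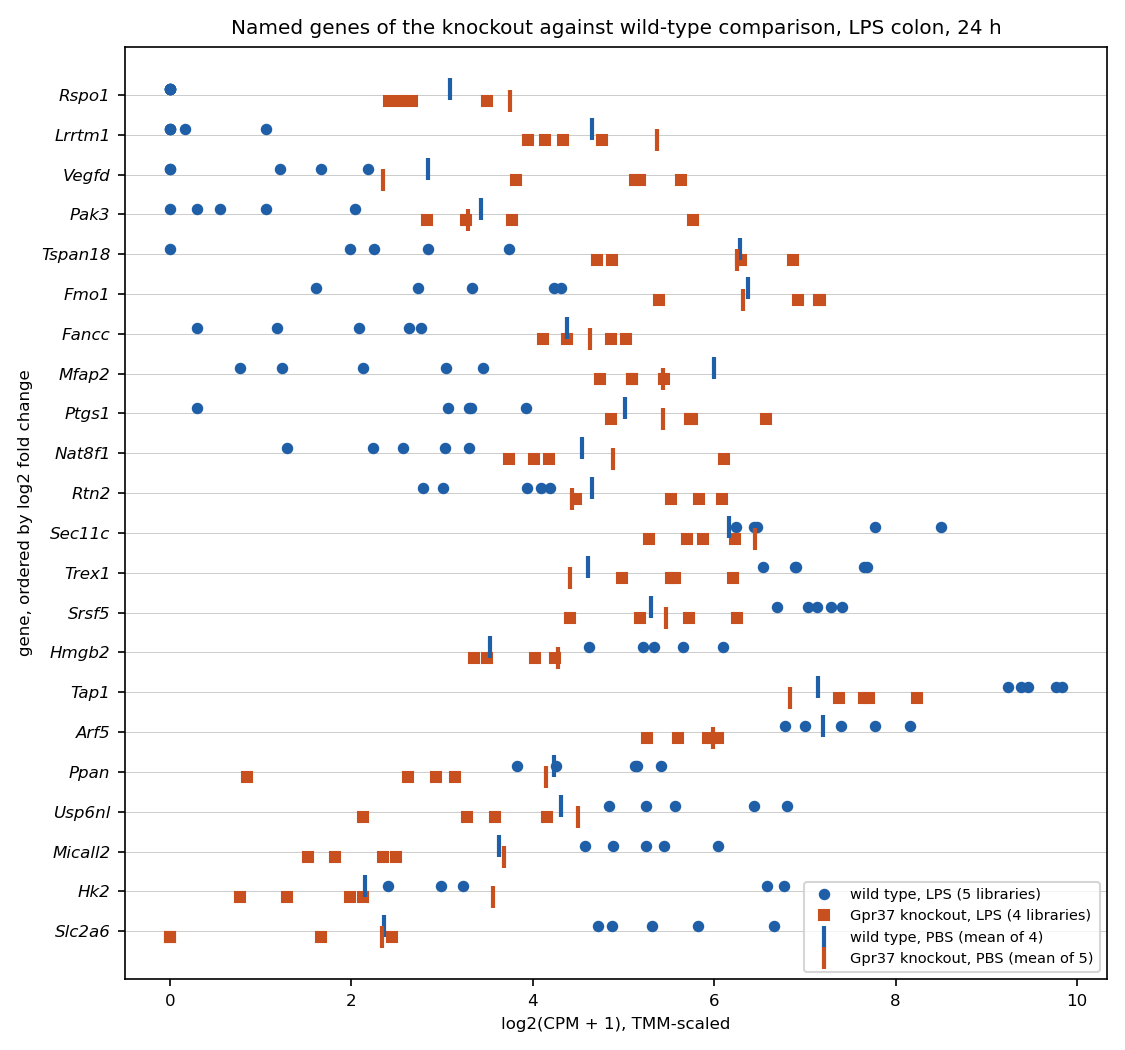
log2(CPM + 1) of the largest changes named in the text, in each LPS colon library, ordered by log2 fold change, with circles for wild type, squares for knockout and upright bars for the PBS colon means of each genotype. In each of these genes the 2 LPS groups do not overlap, as the rule required, with Slc2a6 at 25.3 to 99.8 CPM in wild type and at most 4.44 CPM in knockouts.

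The called genes were then set beside the PBS colon libraries, which are not part of the contrast behind the calls. In all 25 lower genes the wild-type LPS mean lay above the PBS level, taken as the mean of both PBS groups on the log2(CPM + 1) scale. In 0 of the 39 higher genes did the wild-type LPS mean lie above it. The knockout LPS mean was above the PBS level in 12 of the 25 and 23 of the 39. It was nearer to PBS than the wild-type LPS mean was in 59 of the 64 called genes (92.2%), against 9433 of all 14903 tested genes (63.3%). The median distance from PBS was 1.56 in wild type and -0.08 in knockouts over the lower genes, and -1.93 and 0.12 over the higher genes. These are descriptions, since the calls themselves fix how far the 2 LPS groups lie apart. Mice numbered 10 and below gave 3 of 5 libraries in wild-type LPS colon and 1 of 4 in knockout LPS colon. In PBS colon they gave 0 of 4 in wild type and 2 of 5 in knockouts. Whether distance from PBS goes with mouse number was not tested. The wild-type LPS means include the 2 libraries rich in epithelial RNA, and the distances are not given without them.

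Between the genotypes under PBS, no gene was called by edgeR's quasi-likelihood test (629 genes, or 4.22%, at an unadjusted p under 0.05, against 2448, or 16.4%, under LPS). DESeq2 called 74 there and limma 3. Of the 64 genes called under LPS, 33 had the same sign under PBS, and Arf5 alone had it with an unadjusted p under 0.05. The difference between the genotype effects, tested as an interaction of genotype and treatment, called no gene in edgeR (2009 at an unadjusted p under 0.05, 13.5%), 344 in DESeq2 and 20 in limma. Its term was 5.92 ± 1.14 for Lrrtm1 and 3.63 ± 0.82 for Tspan18 (edgeR quasi-likelihood test, Benjamini-Hochberg adjusted p = 0.117 and 0.12). For Tap1 it was -1.48 ± 0.57 and for Arf5 -0.56 ± 0.39 (edgeR quasi-likelihood test, Benjamini-Hochberg adjusted p = 0.249 and 0.569). A genotype difference confined to LPS was therefore not shown for any gene by the edgeR fit.

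Genes of the response to interferon and LPS were mostly at lower values in the knockout, with few calls. Of 40 interferon-stimulated genes tested, 35 had a log2 fold change below 0 and none was called, with a median of -0.51 against 0.005 over all genes. At an unadjusted p under 0.05, 9 were lower and 0 higher, where 7.69% of all genes were lower and 8.74% higher, and in 4 the knockout libraries lay below all wild-type libraries without overlap. Over all genes the groups did not overlap in 3.15%, with 1.98% higher and 1.17% lower in the knockout. Gbp3, a guanylate-binding protein, held 1360, 1290, 442, 1044 and 349 CPM in wild-type mice 13, 16, 3, 5 and 8. Knockout mice 11, 17, 2 and 21 held 212, 349, 337 and 293 CPM, so that the lowest wild-type and the highest knockout library both held 349 CPM. Its log2 fold change was -1.59 ± 0.44 (edgeR quasi-likelihood test, Benjamini-Hochberg adjusted p = 0.0816). Gbp3 was called without wild-type mice 3 and 8 (-2.06, edgeR quasi-likelihood test, Benjamini-Hochberg adjusted p = 0.0334), with the epithelial covariate (-1.60, adjusted p = 0.0326) and among mice numbered 11 and above (-2.24, adjusted p = 0.0181). Gbp2 had -1.27 ± 0.50 and overlapped between groups, because knockout mouse 2 held 2795 CPM.

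NF-kB subunits and feedback inhibitors had the lowest median of the signalling lists, at -0.97, with 15 of 16 members below 0 and 0 called. Nfkbia, the inhibitor that is induced by NF-kB itself, held 2034, 2339, 1429, 3068 and 708 CPM in wild-type mice 13, 16, 3, 5 and 8. Knockout mice 11, 17, 2 and 21 held 624, 976, 1001 and 707 CPM, so that wild-type mouse 8 lay within the knockout range. Its log2 fold change was -1.21 ± 0.38 (edgeR quasi-likelihood test, Benjamini-Hochberg adjusted p = 0.131), and that of Tnip1, another inhibitor, -1.19 ± 0.32 (adjusted p = 0.0751). Without wild-type mice 3 and 8 Tnip1 and Rela were called lower, and the median was -1.25. Without wild-type mouse 5 alone the median was -0.63.

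Of 16 genes of MHC class I presentation, 14 were below 0, with a median of -0.54. Tap1 was the 1 member called. H2-Q4, a class I gene with near-identical copies whose reads are uncertain, held 23.4 to 97.4 CPM in wild type and 8.38 to 28.7 CPM in knockouts, with overlap (log2 fold change -1.83 ± 0.55). The abundant H2-D1 and B2m had -0.53 ± 0.42 and -0.36 ± 0.37. The 11 genes of MHC class II had a median of -0.84 and no call. That median was -2.21 without knockout mouse 2, -0.26 without wild-type mouse 3 and -0.20 without wild-type mice 3 and 8. Libraries were uneven, with H2-Ab1 at 3997 CPM in knockout mouse 2 and 241 to 775 CPM in the other knockouts.

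Of 38 chemokines and cytokines, 30 were below 0 with a median of -0.78 and no call. The median was -0.36 with the epithelial covariate and -0.55 without wild-type mice 3 and 8. Ccl5 ranged from 33.4 to 5165 CPM within the knockout group alone, which is wider than the 922 to 2607 CPM of wild type. Lcn2, the acute-phase lipocalin, held 2880 to 12823 CPM in wild type (median 4969) and 1074, 6750, 5003 and 5149 CPM in knockout mice 11, 17, 2 and 21. Its log2 fold change of -0.48 ± 0.91 did not exceed the spread (edgeR quasi-likelihood test, Benjamini-Hochberg adjusted p = 0.836). Acute-phase proteins had a median of -0.26 (14 tested) and LPS sensing genes -0.15 (14 tested), with no call in either. Glucocorticoid targets, which share Nfkbia with the NF-kB list, had -0.52 (10 of 14 below 0, with -0.28 without wild-type mouse 5 and -0.89 to -0.28 over the alternative fits), and immediate early genes -0.16 (19 tested), likewise with no call.

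For the lists of reactive astrocyte genes, medians were 0.24 for 13 pan-reactive genes, -0.21 for 12 A1 genes and -0.38 for 13 A2 genes, and no member was called. Without wild-type mice 3 and 8 the medians were -0.21, -0.07 and -0.23, among mice numbered 11 and above -0.33, -0.39 and -0.30, and with the epithelial covariate 0.05, 0.11 and -0.14. Limma called 3, 2 and 2 members, all lower (Cd44, Cxcl10, Timp1, Gbp2, H2-T23, Ptx3 and Sphk1). That fit called 2.02% of all genes, 107 higher and 194 lower. Cd44, a pan-reactive adhesion receptor, held 1051, 1085, 430, 1695 and 134 CPM in wild-type mice 13, 16, 3, 5 and 8 and 114, 291, 641 and 189 CPM in knockout mice 11, 17, 2 and 21. Its log2 fold change was -1.51 ± 0.44 (edgeR quasi-likelihood test, Benjamini-Hochberg adjusted p = 0.105), and it was called without wild-type mice 3 and 8 (adjusted p = 0.0218). Ptx3, an A2 gene that encodes a pentraxin of innate immunity, held 323 to 1155 CPM in wild type and 2.5 to 131 CPM in knockouts without overlap. Its log2 fold change was -3.39 ± 1.39 (edgeR quasi-likelihood test, Benjamini-Hochberg adjusted p = 0.221), and it was -3.80 ± 1.40 in PBS colon, where levels were far lower.

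Over the 24 alternative fits, the medians of the interferon, MHC class I, MHC class II, NF-kB, chemokine and glucocorticoid lists kept their sign. That of the interferon list ran from -0.86 to -0.45 and that of the NF-kB list from -1.40 to -0.63. Limma with sample quality weights gave 8 calls in the interferon list (Gbp2 to Gbp6 among them), 7 in the chemokine list, 6 in the NF-kB list and 5 in the MHC class I list, all lower in the knockout, against 2.02% of all genes called in either direction by that fit. It gave wild-type mice 3 and 8 and knockout mouse 2 weights of 0.241 to 0.294, against 0.867 to 2.94 for the other libraries of the comparison. DESeq2 gave 2, 2, 3 and 2 calls in the same lists, of 40, 38, 16 and 16 members, where it called 4.82% of all genes. Its counts for the interferon and chemokine lists were thus near that share. Medians of the pan-reactive, A1, LPS sensing, acute-phase and immediate early lists changed sign in 2 to 9 of the fits.

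**Figure D3:**
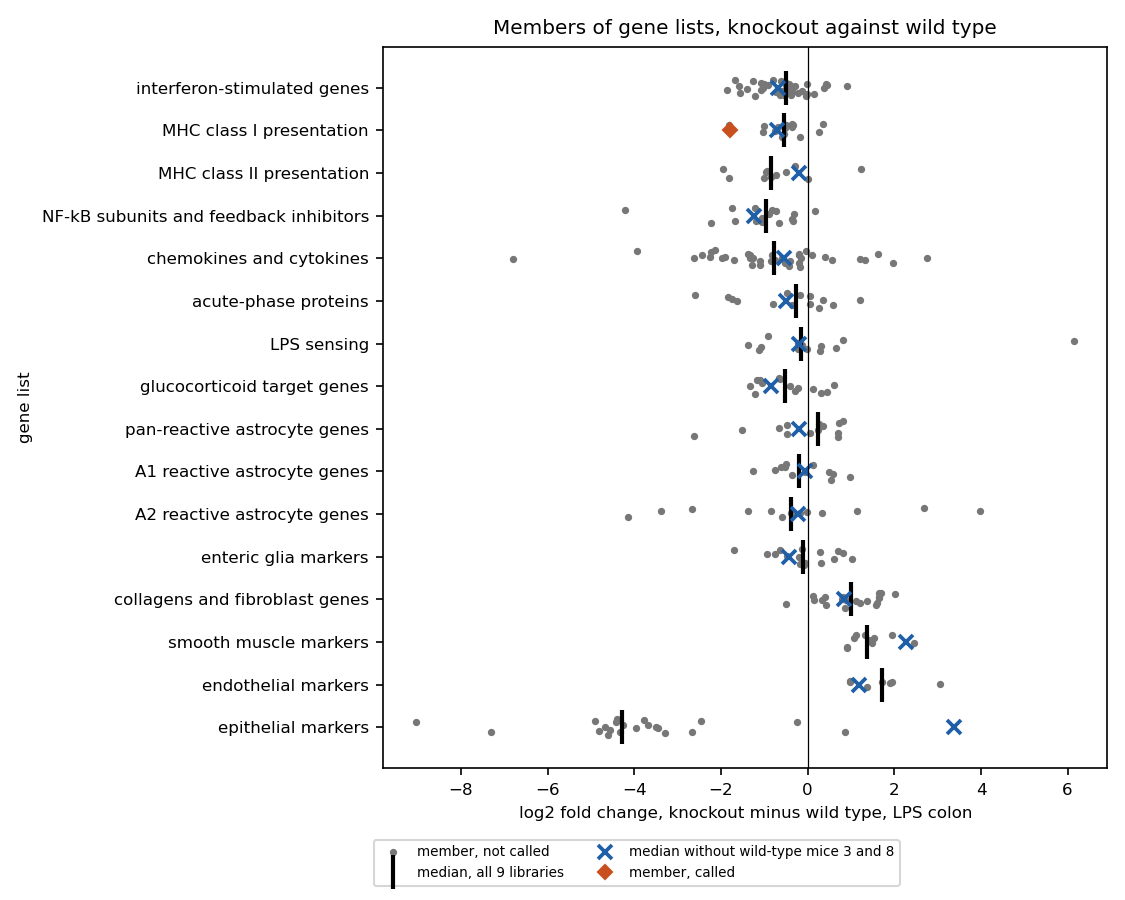
log2 fold change (knockout minus wild type, LPS colon) of each tested member of 16 gene lists, with called members as diamonds, the list median as an upright bar and the median without wild-type mice 3 and 8 as a cross. Interferon, MHC class I and NF-kB lists lie mostly below 0 with both medians below 0, while the median of the epithelial list moves from -4.29 to 3.37.

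Markers of glia were present in every library, with sums of 1429 to 6377 CPM in wild type and 3442 to 4710 CPM in knockouts. The 16 markers had a median log2 fold change of -0.11, with none called. This median ran from -0.66 to 0.40 over the alternative fits, changed sign in 3 and was 0.40 without wild-type mouse 5. Their sum was lowest in wild-type mice 3 and 8. Gfap, an intermediate filament gene of reactive glia, ranged from 181 to 1693 CPM in wild type and from 180 to 1629 CPM in knockouts. Entpd2, an ectonucleotidase of enteric glia, held 157 to 249 CPM in wild type and 314 to 401 CPM in knockouts without overlap (log2 fold change 0.82 ± 0.33; edgeR quasi-likelihood test, Benjamini-Hochberg adjusted p = 0.213). Psap held 566 to 1237 CPM in wild type and 1296 to 2334 CPM in knockouts (0.68 ± 0.23; adjusted p = 0.156). Of 9 tested receptors, ligands and partners of Gpr37 none was called, nor of 13 myelin genes, whose median was 0.

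RNA of other cells differed between single libraries. The 22 epithelial markers summed to 11568 and 18780 CPM in wild-type mice 3 and 8, and to 18 to 50 CPM in the other 3 wild-type libraries. Knockout mice 11, 17, 2 and 21 held 25.5, 109, 509 and 923 CPM. At 0 were 14, 7 and 11 of the 22 markers in wild-type mice 13, 16 and 5, against 0 and 1 in mice 3 and 8. In the same knockouts 14, 14, 4 and 2 markers were at 0. The median log2 fold change of these markers was -4.29 with all libraries and 3.37 without wild-type mice 3 and 8, with no call in either fit. Goblet cell and neutrophil markers reversed alike, from -2.01 to 6.15 and from -1.74 to 3.95. Cell cycle genes went from -0.96 to 0.59 and macrophage markers from -1.15 to -0.01, and to 0.10 and 0.24 without wild-type mouse 3 alone. For lymphocytes and plasma cells the medians were -2.68 and -0.82, and for enteroendocrine cells -1.72 and 0.57. Without knockout mouse 2 alone they were -7.05 and -5.61.

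Lists of genes of the muscle layer and its vessels had medians above 0 in the knockout with and without wild-type mice 3 and 8. Smooth muscle markers had a median of 1.38 (10 of 10 above 0) and 2.26 without wild-type mice 3 and 8, endothelial markers 1.71 (7 of 7) and 1.19, and collagens with other fibroblast genes 1.01 (19 of 20) and 0.85. With mouse number as a covariate the collagen median was 0.37, and among mice numbered 11 and above the endothelial median was 1.01. The 3 markers of interstitial cells of Cajal had 2.40 and 2.04, but 0.78 without knockout mouse 11, which held 626 CPM of them against 49.3 to 203 CPM in the other knockouts. None of these genes was called. Lmod1, an actin nucleator of smooth muscle, held 61.1, 36.8, 13.7 and 13.9 CPM in knockout mice 11, 17, 2 and 21 and 1.36 to 9.11 CPM in wild type (log2 fold change 2.45 ± 0.67; edgeR quasi-likelihood test, Benjamini-Hochberg adjusted p = 0.0754). Endothelial markers summed to 1159 to 1511 CPM in knockout mice 11, 17 and 21, to 198 CPM in mouse 2 and to 64.8 to 823 CPM in wild type. Collagens and fibroblast genes summed to 18527 to 21257 CPM in knockout mice 11, 17 and 21. Knockout mouse 2, at 3269 CPM, lay within the wild-type range of 1325 to 12276 CPM. A set of 9 pericyte genes, listed after the values were seen, had a median of 1.33. Neuron markers had a median of 0.34, and -0.58 without knockout mouse 2. Mesothelial markers had 2.11, and -1.43 without knockout mouse 17. Adipocyte markers had 1.72, with 0.06 to 3.91 over the alternative fits. Mitochondrially encoded genes had -0.21, with -1.16 to 0.12 and a change of sign in 3 fits. No member of these lists was called in the reported fit. In such bulk samples fewer cells of a type and less RNA per cell cannot be told apart.

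**Figure D4:**
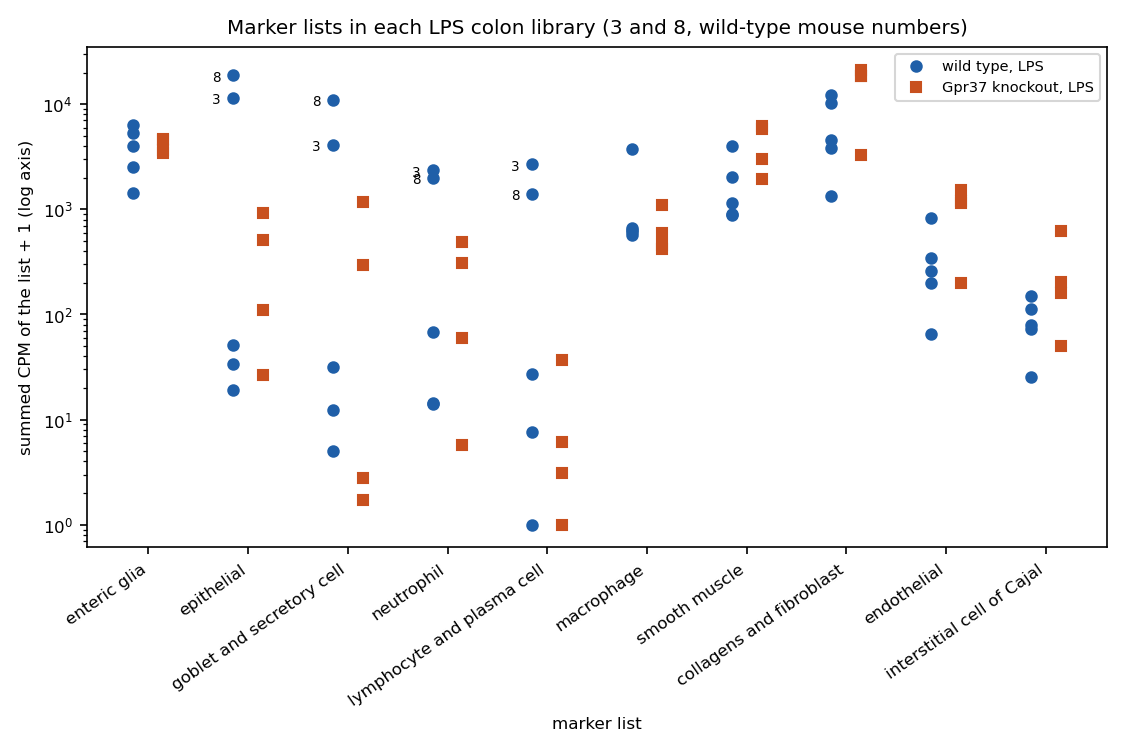
Summed CPM (plus 1, log axis) of 10 marker lists in each of the 9 LPS colon libraries, with circles for wild type and squares for knockout. Epithelial, goblet, neutrophil and lymphocyte lists set wild-type mice 3 and 8 (numbered) apart, and endothelial and collagen lists set 1 knockout library (mouse 2) apart.

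With the epithelial marker mean of each library as a covariate, 57 genes were called, 47 of the 64 among them, and all 64 kept their direction. Arf5, Lrrtm1, Rspo1, Tspan18, Vegfd, Slc2a6 and Tap1 were called in that fit. The log2 fold changes of Usp6nl and Ppan were close to those reported, at -2.57 and -2.25, but were not called (edgeR quasi-likelihood test, Benjamini-Hochberg adjusted p = 0.0602 and 0.0567). Those of Hk2 and Sec11c were smaller, at -2.58 and -1.21, and not called (adjusted p = 0.111 and 0.0708). Without wild-type mice 3 and 8 there were 40 calls, 14 higher and 26 lower, of which 13 were among the 64. Those 13 included Lrrtm1, Arf5, Rspo1, Tspan18, Vegfd, Slc2a6, H3f3b and Ninj1, a mediator of plasma membrane rupture that was named after its values were seen. Without knockout mice 2 and 21 as well, which had the highest epithelial sums of their group, 8 genes were called, 3 of them among the 64. In every fit run, all of the 64 genes that were tested kept their direction. These genes were chosen in the same libraries, and in 53 of the 64 the groups did not overlap. Omission of libraries could thus hardly reverse them.

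Mouse number and single libraries moved the number of calls further. Wild-type LPS colon held 3 mice numbered 10 and below and the knockout group 1, and the mitochondrial share of counts was 4.88 to 14.2% in wild type and 2.34 to 17.9% in knockouts. Among mice numbered 11 and above, with 3 knockout and 2 wild-type libraries, 334 genes were called, 32 of the 64 among them, and with the division as a covariate 40. Leaving out 1 library gave 7 to 141 calls, with 7 without knockout mouse 11, 12 without mouse 21, 15 without wild-type mouse 3, 23 without knockout mouse 17, 35 without wild-type mouse 8 and 141 without mouse 16. Called in all 9 of these fits were Arf5, Lrrtm1, Pak3, Rspo1, Tspan18 and Vegfd. When the model held the 4 colon groups alone, or the compared groups alone, no gene was called (1598 and 763 at an unadjusted p under 0.05), while DESeq2 called 719 and limma with sample weights 301. The 37 libraries of the model come from 22 mice, 15 of which gave both regions, and the reported fit treats them as independent. Limma with the mouse as a block called 302 genes, 40 of the 64 among them, with a correlation of 0.121 within a mouse.

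**Figure D5:**
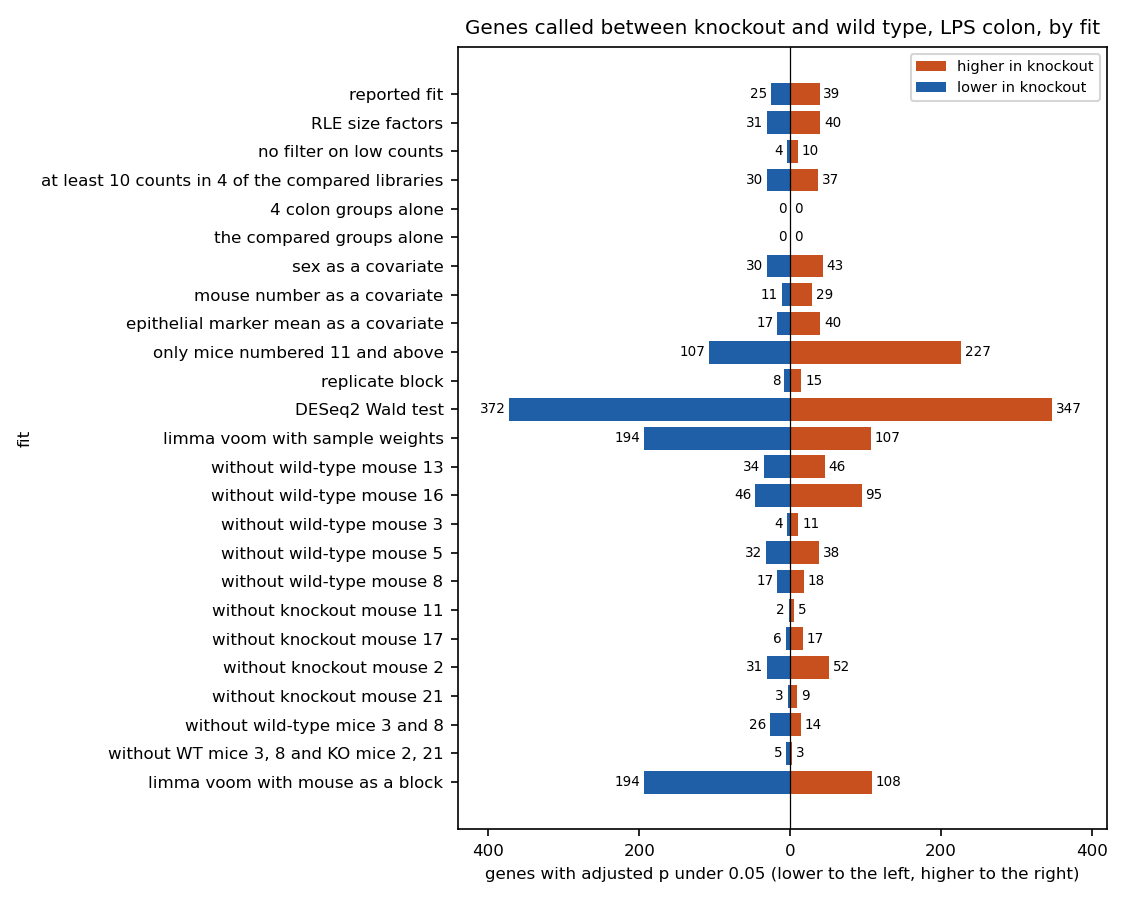
Number of genes with an adjusted p under 0.05 for knockout against wild type in LPS colon, higher in the knockout to the right and lower to the left, for the reported fit and each alternative. Counts run from 0 in fits of the colon groups alone to 719 in DESeq2, and leaving out single libraries gives 7 to 141.

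In LPS small intestine, whose libraries come in part from the same mice, 2 genes were called for genotype (0.0134%), Lrrc45 higher and Arf5 lower (0.00671% each). Of the 64 genes called in the colon, 58 had the same sign there (90.6%, against 58.1% of all genes), and 20 also an unadjusted p under 0.05 (31.2%, against 5.83% of all genes). In either direction 7.63% of all genes had such a p. These shares are descriptions, since the same mice enter both comparisons. Genes with such a p included Rspo1 (1.63 ± 0.73), Tap1 (-1.35 ± 0.39), Srsf5 (-1.21 ± 0.34) and H3f3b (-0.75 ± 0.20). Lrrtm1, Tspan18 and Pak3, which rose in the colon, had 0.86 ± 0.66, 0.38 ± 0.58 and 0.05 ± 0.71 and were not called. Whether these effects differed between regions was not tested.

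Promoters of 19 of the 25 lower and 33 of the 39 higher genes were found in the RefSeq table and searched for 5 motifs on both strands. The kappaB-like motif was in 8 of 19 and 13 of 33, and in 20.7% of all 32851 promoters of that length. TGACGT was in 6 of 19 lower and 2 of 33 higher genes, and in 7.51% of all promoters. An interferon response element-like motif, 2 copies of GAAA with any 2 bases between them, was in 0 of 19 and 3 of 33 (3.44% of all), TTCNNNGAA, a STAT-like motif, in 1 and 2 (8.3%) and CACGTG in 2 and 3 (7.15%). Overlapping matches, as in Arf5, counted under both motifs. A gene counted where any of its promoters matched, whereas the percentages are over single promoters. The 2 are therefore not like for like, and no excess of a motif can be read from them. The matches describe letters in these windows only.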

How the data were processed

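RNA extraction used a micro-scale column kit, followed by Smart-seq2 library preparation, which carries no molecular identifiers, per the labels' protocols. Trim Galore 0.4.4, STAR 2.5.3, DESeq2 and GRCm38 are named in the submitters' processing notes. The counter, the annotation and the use of strand are not given in the sources used here. The authors deposited raw counts per gene symbol, taken as unnormalized because they are whole numbers with unequal totals. Totals of the 9 compared libraries ran from 2882539 to 11874359 counts. Of 21076 symbols, 25 read as dates and are not named.

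All 8 groups of the 24 h experiment (37 libraries) entered 1 model without covariates, and without a term for the 15 mice that gave both regions, in edgeR 4.0.16 (R 4.3.3), with filterByExpr and TMM factors. Tests were two-sided and used quasi-likelihood. A gene was called at a Benjamini-Hochberg adjusted p under 0.05 over 14903 genes, and SE is the absolute log2 fold change over the square root of F. CPM are scaled by TMM. Medians of log2 fold change over a list stand without a test. The 24 genes with the largest changes were named by a rule: up to 12 per direction among called genes with average log2 CPM of at least 3, no overlap between groups and no predicted name. Some items that the rule selects are not reported here. Further names are called members of 30 lists, and for each list the 2 members with the smallest p and the 2 most abundant. The comparison, the lists and the division by mouse number at 10 were chosen with earlier results of these data known. Alternatives used limma 3.58.1 (voom with sample quality weights), DESeq2 1.42.0 and other filters, covariates and samples. The fits without wild-type mice 3 and 8, without knockout mice 2 and 21 too, and with the mouse as a block (limma's duplicateCorrelation) were chosen after seeing the data. The model was tested on simulated counts. Nothing in the labels says which steps were shared, but mouse numbers differ within each group, and no 2 replicates agreed within counting noise (16 pairs). Coordinates are of GENCODE M21 (GRCm38).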

Additional observations from a re-analysis of the deposited data

Results flagged for a closer look

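In groups of 4 or 5 libraries, the highest or lowest value was compared with the gap to its neighbour over the group's range (Dixon's criterion). Of 114 groups of values examined 6 were set apart, while chance alone gives about 5.7 at 1 in 20. Values of single genes are log2(CPM + 1). In wild type, Lrrtm1 in mouse 13 was 1.065, against 0 to 0.163 in the others, and Ptgs1 in mouse 3 was 0.3055, against 3.07 to 3.93. The other 4 were knockout mouse 2. It had 5.393 for Fmo1, against 6.93 to 7.16 in the other knockouts, and 0.3426 for Gpr37, where the others were at 0 and the value stands for 1 count. Its mean log2 CPM was 8.792 over A1 reactive astrocyte genes, against 7.97 to 8.08, and 3.731 over endothelial markers, against 6.76 to 7.11. Knockout mouse 2 also had the highest mitochondrial share of the 9 libraries, 17.9%. The cause was not tested.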

How the results depend on the processing

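Against 64 calls as reported, 14 genes were called with no filter on low counts, 0 with the 4 colon groups alone, 0 with the compared groups alone, 40 with mouse number as a covariate, 334 among mice numbered 11 and above, 719 with DESeq2, 301 with limma and 302 with limma and the mouse as a block. Those without wild-type mice 3 and 8 numbered 40, and those without knockout mice 2 and 21 as well 8. RLE size factors (71), the stricter filter (67), sex (73) and the epithelial covariate (57) stayed within 1.5 times. The epithelial covariate shifted the median of all genes to 0.12. Leaving out 1 library gave 7 to 141 calls. For PBS colon, 0 calls became 74 with DESeq2 and 3 with limma (3 with the mouse as a block), and leaving out 1 library gave 0. For the interaction, 0 calls became 1 with mouse number, 3 with the epithelial covariate, 25 among mice numbered 11 and above, 344 with DESeq2, 20 with limma and 18 with the mouse as a block, and leaving out 1 library gave 0 to 5. A fit of the compared groups alone is the 4 colon groups for the interaction. Gpr37 (-5.30) was called among mice numbered 11 and above (-8.89) and with DESeq2 (-5.59). Leaving out 1 library gave -7.38 to -3.77, and the stricter filter removed the gene. List members called numbered 1, and 0 with no filter, 0 and 0 in the fits of fewer groups, 2 with sex, 3 with the epithelial covariate, 11 among mice numbered 11 and above, 22 with DESeq2, 38 with limma (38 with the mouse as a block), 4 without wild-type mice 3 and 8, and 0 to 2 without 1 library. Over all genes 2.18% were called among mice numbered 11 and above, 4.82% with DESeq2 and 2.02% with limma. The counts of list members are given without the number of members tested, so they show no excess of list members. The cause of these moves was not tested. No alternative reversed a called gene, which the choice of these genes in the same libraries largely fixes. The replicate number of the titles does not mark shared mice, and same-numbered libraries correlated at 0.0563 (-0.118 to 0.145), against -0.00986 for others. With the replicate block 23 genes were called, 21 of them among the 64, and 0 for PBS colon and the interaction. Depth of 2882539 to 11874359 counts limits genes near 1 CPM, such as Gpr37.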
